A study of Rattus norvegicus with 42 samples.

Results

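Occupancy of gene bodies by elongating RNA polymerase II was compared in rat liver at 180 min of corticosterone (CORT) infusion, between a constant infusion (CONS_180) and the nadir of a pulsatile infusion (NADIR_180). The series holds 42 libraries, and the comparison rests on 4 of the 10 immunoprecipitated for RNA polymerase II phosphorylated on serine 2 of its carboxy terminal domain (pSer2 Pol2), 2 for each infusion. The members were chosen by label, as every CONS_180 and NADIR_180 library of that antibody, and all regions with a non-zero value in any of the 10 libraries were tested, which kept 38315 of 60999 regions and 16568 of 26426 genes.

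All livers came from male Sprague Dawley rats that had been adrenalectomised, given carprofen and dexamethasone after surgery, kept on drinking water with CORT during recovery and returned to plain saline before infusion. CORT was infused into the jugular vein in heparinised saline, with 2-hydroxypropyl-β-cyclodextrin as the carrier. NADIR_180 rats received pulses of 20 min every 60 min at 1 ml per h and were taken 40 min after the third pulse had ended, when the hormone was falling. CONS_180 rats received CORT without interruption at 0.333 ml per h, after a short start at a faster rate, and were taken at the same time, with the hormone present. The other pSer2 Pol2 groups were the third pulse peak (PEAK_140) and the constant infusion (CONS_140) at 140 min, and carrier without CORT given in pulses (VEH), with 1 library from 140 min and 1 from 180 min. Each library pooled the livers of 6 rats, so that the 2 libraries of a group show the spread between pools and not between animals.

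Polymerase that has left the promoter is phosphorylated on serine 2 as it moves through the gene body, and the level of this form over a gene is read as a measure of ongoing transcription. CORT acts through the glucocorticoid receptor (GR), a transcription factor that binds DNA while hormone is bound to it and leaves as the hormone is cleared. In hepatocytes its known targets include enzymes of amino acid breakdown, urea synthesis and gluconeogenesis. RNA that has already been made stays after polymerase has left, so mRNA at the same time need not follow occupancy.

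Each value is the level of tags with input subtracted, over at most the first 10000 b of each coding region. The headers name the values tag counts, but they are not whole and fall below 0, so they were taken as log2 values drawn towards the mean of the region where tags were few. Differences and folds here rest on that reading. Total tags, from the file headers, were 5952158 and 6704747 for NADIR_180 and 7780125 and 4938473 for CONS_180, within a range of 4938473 to 9326927 over the 10 libraries. Over the 4477 regions with a mean value of 6 or more, the library medians were 7.15 and 6.97 for NADIR_180 and 7.25 and 6.77 for CONS_180, while CONS_140 replicate 1 stood apart at 7.70. The median difference between CONS_180 and NADIR_180 was 0.0001 over all tested regions and -0.06 over the regions of mean 6 or more, so no overall shift separated the groups. The labels number the NADIR_180 libraries in an earlier series than the CONS_180 libraries, and that numbering cannot be told apart from the infusion pattern.

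The labelled tissue was checked against cell type markers. All 10 measured hepatocyte markers had values, with Alb (albumin) at a mean of 12.9 over the libraries. Several defining markers of other cells were listed at 0 in every library, namely Ptprc, Cd3e and Ms4a1 of leukocytes, Krt7 and Spp1 of cholangiocytes, and Des and Dcn of stellate cells. Genes in wide use, such as Tpi1 of glycolysis and the chaperone gene Hsp90aa1, were listed at 0 as well, so a listed 0 does not show that a gene was free of polymerase. On the log2 scale the summed level of the hepatocyte list was 14.52 and 14.62 in NADIR_180 and 15.14 and 15.04 in CONS_180. The Kupffer cell list summed to 7.35 and 7.35 against 7.65 and 7.20, the endothelial list to 7.33 and 7.21 against 7.23 and 6.42, and the stellate cell list to 7.19 and 7.33 against 6.68 and 6.23. In limma 0 measured markers of these other cell types were called, and 0 had an unadjusted p below 0.05. The part of cell composition in the results below was not tested, and in bulk liver a change in the number of cells of one type cannot be told apart from a change per cell.

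To see whether polymerase was held on genes by hormone that stayed, CONS_180 was compared with NADIR_180 directly. In limma, 29 genes were called, by an adjusted p under 0.05 together with a change beyond 1.5-fold, which is 0.175% of the genes tested. A region at an unadjusted p under 0.05 was found in 400 genes (2.41%). Of the 29 called genes, 28 were higher in CONS_180 (0.169%) and 1 was lower (0.00604%). The lower one was Cxcl1, a neutrophil chemokine. Of the 28, 27 are protein coding, and the exception is the long intergenic RNA gene AABR07044148.1. All 29 had non-overlapping libraries, which held for 20.6% of all tested genes. After centring of each library on its median, 72 genes were called, 61 higher and 11 lower, and quantile normalisation gave 61 and 19. Centring on the median of the regions with a mean of 6 or more, chosen after seeing the data, gave 183 and 142. So the share of higher among called genes was 96.6% as deposited and 84.7%, 76.2% and 56.3% under these scalings. Centring shifts all genes alike, by far less than the differences of the 29, so it could not turn their direction. Quantile normalisation turned none of the 29 but kept only 25 of the calls. It lost Serpina3c (adjusted p = 0.057 from limma), Bhmt (0.096), Cps1 (0.053) and Tat (0.57).

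The labels number the replicates, though it was not shown that the numbers pair the libraries. With the replicate number as a block over the 8 numbered CORT libraries 26 genes were called (0.157%), 25 higher and 1 lower. Of these 26, 22 were among the 29. When the 4 libraries were fitted alone, limma called 0 genes with the block and 0 without it, with 2123 and 1506 regions at an unadjusted p below 0.05, so the calls rest on the spread estimated over the other groups as well. In the fit of 8 libraries with the block, which also leaves out VEH, 7 of the 29 were not called. They were Scd (adjusted p = 0.088 from limma), Serpina3c (0.056), Alas1 (0.067), Bhmt (0.086), Cps1 (0.081), Tat (0.17) and Cxcl1 (0.10). Over the same 8 libraries without the block 25 genes were called, 23 of them among the 29. Scd (0.20), Alas1 (0.10), Tat (0.10) and Cxcl1 (0.14) were already not called there, so adding the block took away Serpina3c, Bhmt and Cps1 and brought back Pik3r1 (0.10 to 0.022) and Tp53inp1 (0.10 to 0.046). The 4 genes called with the block but not among the 29 were Cyp2j10 (3.26), Etnppl (2.94) and Sds (1.91), which were higher, and Cxcl12 (-2.89), which was lower. No gene was called without CONS_180 replicate 1 or without CONS_180 replicate 2, with 1110 and 811 regions at an unadjusted p below 0.05, whereas 6 genes were called without NADIR_180 replicate 1 and 82 without NADIR_180 replicate 2, 63 of those lower. Each call therefore rests on both CONS_180 pools. Leaving out a library moved the log2 differences of the 29 genes to between 0.78 and 1.22 times their size. Their direction could not turn in these fits, since the groups of all 29 did not overlap.

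**Figure D1:**
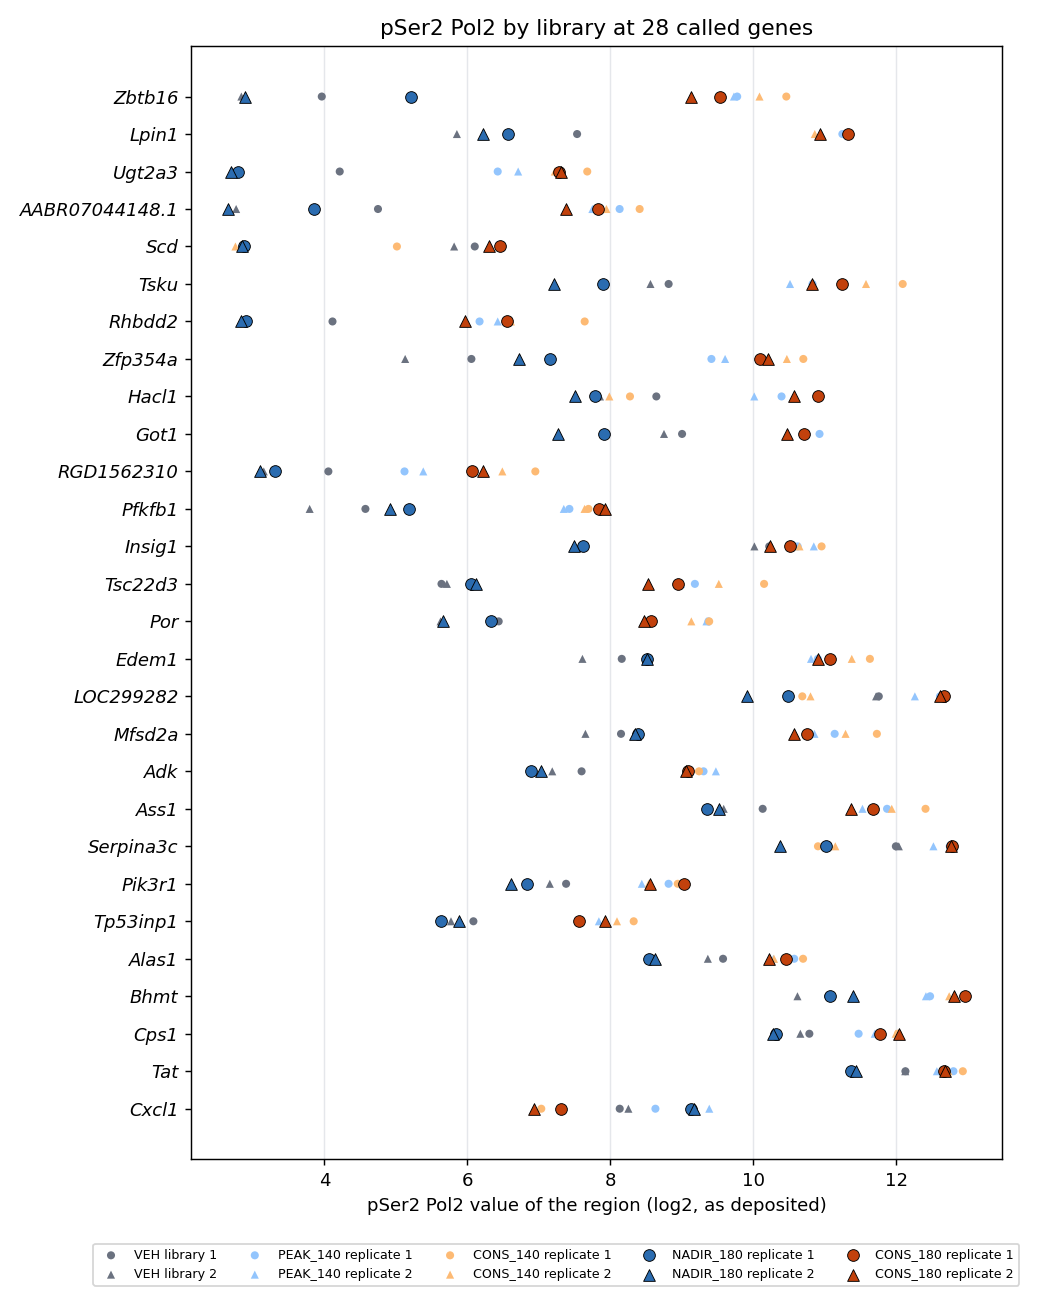
Values of pSer2 Pol2 at 28 of the 29 called genes, 1 gene per row, with the deposited log2 value on the x axis and 1 symbol per library (circle, replicate or library 1; triangle, replicate or library 2). In all rows but that of Cxcl1 both CONS_180 symbols lie to the right of both NADIR_180 symbols, with Cxcl1 at 7.31 and 6.93 against 9.12 and 9.17.

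Promoter sequences of the called genes are shown for 4 genes that differ in what stands near their start, from RefSeq on the GRCr8 build, each running from 250 bases before to 50 bases after the annotated start of the gene. RefSeq sequences matched 21 of the 29 genes. Those without a match included AABR07044148.1, LOC299282, Mfsd2a, RGD1562310, Serpina3c, Tp53inp1 and Zbtb16. The motifs were chosen after the called genes were known, searched on both strands, and a match describes letters and not a bound site. For the first 2 sequences, from Cps1 and Cxcl1, capitals mark ACANNNTGT, the core of the inverted repeat that GR recognises, and in Cxcl1 they also mark a string of letters that NF-κB recognises.
Cps1 (9:76063613-76063912, plus strand): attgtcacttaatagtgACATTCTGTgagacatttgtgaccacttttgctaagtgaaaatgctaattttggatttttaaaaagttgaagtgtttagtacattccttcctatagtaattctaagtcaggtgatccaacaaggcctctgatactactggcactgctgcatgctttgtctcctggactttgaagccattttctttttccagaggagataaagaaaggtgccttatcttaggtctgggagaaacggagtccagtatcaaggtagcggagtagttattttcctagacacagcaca
Cxcl1 (14:17479272-17479571, minus strand): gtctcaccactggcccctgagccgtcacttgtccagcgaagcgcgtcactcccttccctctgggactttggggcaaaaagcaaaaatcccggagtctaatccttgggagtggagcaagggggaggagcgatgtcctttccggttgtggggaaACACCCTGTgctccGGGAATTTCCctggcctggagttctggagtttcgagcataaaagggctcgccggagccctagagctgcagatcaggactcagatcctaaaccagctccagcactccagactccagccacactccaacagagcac
In Cps1 the core lay at -233 to -225 from the start. In Cxcl1 it lay at -98 to -90 and the NF-κB string at -84 to -75. ACANNNTGT was found in 5 of the 21 promoters (Cps1, Cxcl1, Pfkfb1, Tsc22d3 and Ugt2a3) and in 6.86% of all 33469, the NF-κB string in Cxcl1 alone and in 0.0747% of all, and the single GR repeat AGAACA in Lpin1 alone and in 20.7% of all.

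In the other 2 promoters, capitals mark CACGTG (the E-box) in Insig1, at -79 to -74, and CCAAT on either strand in Got1.
Insig1 (4:8057720-8058019, minus strand): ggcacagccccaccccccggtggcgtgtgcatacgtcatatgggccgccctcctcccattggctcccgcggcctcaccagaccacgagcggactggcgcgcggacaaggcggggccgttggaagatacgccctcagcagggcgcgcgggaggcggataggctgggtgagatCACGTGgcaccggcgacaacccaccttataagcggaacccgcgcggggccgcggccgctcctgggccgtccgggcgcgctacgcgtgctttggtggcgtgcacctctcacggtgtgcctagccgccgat
Got1 (1:252329822-252330121, minus strand): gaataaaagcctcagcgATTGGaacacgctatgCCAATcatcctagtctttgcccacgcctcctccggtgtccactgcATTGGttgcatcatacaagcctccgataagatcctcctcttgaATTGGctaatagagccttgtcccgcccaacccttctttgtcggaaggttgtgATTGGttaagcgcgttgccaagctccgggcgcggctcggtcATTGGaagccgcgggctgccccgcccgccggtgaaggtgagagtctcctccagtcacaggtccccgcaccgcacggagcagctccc
CACGTG was found in 1 of the 21 promoters and in 6.42% of all. CCAAT was found in 11 of the 21 and in 37.5% of all, and Got1 held 6 matches, a number that 14 promoters (0.0418% of all) reach, itself included. TATAAA was found in 3 of the 21 and in 14.2% of all.

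Among the called genes that are textbook targets of GR, Zbtb16, a zinc finger transcriptional repressor, had the greatest difference. Its region lay on chromosome 8 of rn6 (53136953 to 53146953) and read 5.21 and 2.89 in NADIR_180 and 9.53 and 9.13 in CONS_180. The difference was 5.28 on the log2 scale (SE 0.63 over 2 libraries a group, limma adjusted p = 0.0063), and without a variance trend in limma the call was lost (adjusted p = 0.063), as were those of Scd (0.19), AABR07044148.1 (0.10) and Rhbdd2 (0.068). The NADIR_180 libraries of Zbtb16 differed from each other by more than those of any other called gene, and both lay below both CONS_180 libraries. Tsc22d3, which encodes the anti-inflammatory protein GILZ, read 6.04 and 6.12 in NADIR_180 and 8.94 and 8.53 in CONS_180, a difference of 2.65 (SE 0.33, adjusted p = 0.0077 from limma). Tat, the first enzyme of tyrosine breakdown and a classical hormone-induced gene of liver, had high values throughout, 11.37 and 11.44 in NADIR_180 and 12.66 and 12.68 in CONS_180. Its difference of 1.27 (SE 0.20, adjusted p = 0.035 from limma) was the smallest of the 28. Quantile normalisation reduced it to 0.41, which was not called (adjusted p = 0.57 from limma).

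The list of known GR targets held 20 measured genes, of which these 3 were called, all higher. By the region of highest mean, 12 of the 20 were higher at an unadjusted p below 0.05 and 1 was lower, against 1.26% and 1.07% of all tested genes, and the median difference of the list was 0.87 against 0.00 over all genes. The shares over all genes, here and for the lists below, include many genes with low values. Library medians over tested regions were 2.56 and 2.39 in NADIR_180 and 2.48 and 2.37 in CONS_180. When the 4477 regions of mean 6 or more were fitted alone in limma, 651 had an unadjusted p below 0.05. The lists were chosen with earlier results of these data known, so these contrasts describe them and are no test. Errfi1, a feedback inhibitor of epidermal growth factor signalling, differed by 0.75, Dusp1, a phosphatase that switches off MAP kinases, by 1.29, and Gadd45g, a growth arrest gene, by 0.85, none of them called. Angptl4, a lipase inhibitor, differed by 0.76 and was not called. Per1, a clock gene with GR sites, read 6.38 and 5.52 in NADIR_180 and 7.69 and 6.97 in CONS_180, a difference of 1.38 that was not called (SE 0.56, adjusted p = 1.0 from limma).

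The lists of amino acid breakdown, the urea cycle and the methionine cycle each held 2 called genes, beside 0.175% called over all genes. Got1, the cytosolic aspartate aminotransferase, read 7.92 and 7.27 in NADIR_180 and 10.71 and 10.47 in CONS_180, over chromosome 1 of rn6 (263259762 to 263269762). The difference was 3.00 (SE 0.31 over 2 libraries a group, limma adjusted p = 0.0034). Both NADIR_180 libraries of Got1 were also below both VEH libraries, at 9.00 and 8.75. Of 25 measured genes of amino acid breakdown, 2 were called (Got1 and Tat), 10 were higher and 2 lower at an unadjusted p below 0.05, and the median was 0.43. Below the threshold were Etnppl, which breaks down phosphoethanolamine, with a difference of 2.94 (SE 0.49), and Sds, serine dehydratase, which read 7.93 and 7.49 in NADIR_180 and 9.82 and 9.41 in CONS_180. Their adjusted p-values from limma were 0.051 and 0.096, and both were called with the replicate block. Hpd, of tyrosine breakdown, differed by -0.07, Cdo1, of cysteine breakdown, by 0.71, and Tdo2, of tryptophan breakdown, by 1.12, none of them called.

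In the urea cycle, Ass1 (argininosuccinate synthase) and Cps1 (carbamoyl phosphate synthetase, the entry of ammonia) were called, 2 of 9 measured genes. Ass1 read 9.35 and 9.52 in NADIR_180 and 11.68 and 11.36 in CONS_180, a difference of 2.08 (SE 0.29, adjusted p = 0.015 from limma), and all 3 of its distinct regions were called. Cps1 read 10.31 and 10.27 against 11.77 and 12.04, a difference of 1.61 (SE 0.23, adjusted p = 0.015 from limma). With quantile normalisation Cps1 differed by 1.22 and was not called (adjusted p = 0.053 from limma). Its other tested region, which starts further inside the gene, differed by 0.79 and was not called. The list's other members included Slc25a15, the mitochondrial ornithine carrier, at 1.41, whereas Asl and Otc stood at -0.02 and -0.46, and the median of the 9 was 0.09. In the methionine cycle, 2 of 14 genes were called and 6 were higher at an unadjusted p below 0.05, with a median of 0.33. Bhmt, which remethylates homocysteine from betaine, read 11.07 and 11.39 against 12.96 and 12.80, a difference of 1.66 (SE 0.23, adjusted p = 0.015 from limma). Quantile normalisation reduced the difference of Bhmt to 1.00, which was not called (adjusted p = 0.096 from limma). Adk, adenosine kinase, read 6.89 and 7.03 against 9.08 and 9.06, a difference of 2.11 (SE 0.30, adjusted p = 0.016 from limma), while its other tested region differed by 0.73 and was not called. Mat1a, which makes S-adenosylmethionine, differed by 1.31 and Ahcy, which splits S-adenosylhomocysteine, by 1.41, neither of them called.

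Lipid genes among the 28 belonged to several pathways. Lpin1, a phosphatidate phosphatase that also acts as a transcriptional coactivator, read 6.57 and 6.22 in NADIR_180 and 11.32 and 10.92 in CONS_180. The difference of 4.73 (SE 0.47 over 2 libraries a group, limma adjusted p = 0.0033) was 26.5-fold. It lay over the region at 41832817 to 41842817 on chromosome 6 of rn6, whereas the region of the upstream start read 1.38 and 1.34 in NADIR_180 and 1.40 and 1.74 in CONS_180 and was not called. Insig1, which retains the sterol sensor SCAP in the endoplasmic reticulum, read 7.61 and 7.49 in NADIR_180 and 10.51 and 10.22 in CONS_180. Its difference of 2.82 (SE 0.27, adjusted p = 0.0029 from limma) was the 1 call among 27 measured sterol genes, whose median was -0.03. Insig2, the homologue of Insig1, differed by -0.95 and was not called. Scd, stearoyl-CoA desaturase, read 2.88 and 2.84 against 6.45 and 6.30, a difference of 3.51 (SE 0.55, adjusted p = 0.035 from limma), and was the only called gene of 16 in fatty acid synthesis and desaturation. Fads2, a desaturase of polyunsaturated fatty acids, differed by -3.18 and was not called.

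The remaining lipid genes were Hacl1, which shortens branched fatty acids in peroxisomes, Mfsd2a, a transporter of lysophosphatidylcholine, and Tsku, a secreted hepatokine. Hacl1 read 7.79 and 7.50 in NADIR_180 and 10.90 and 10.57 in CONS_180, a difference of 3.09 (SE 0.34, adjusted p = 0.0043 from limma). Tsku read 7.89 and 7.21 against 11.24 and 10.81, a difference of 3.47, and Mfsd2a differed by 2.29. In triglyceride and lipoprotein metabolism 1 of 23 genes was called (Lpin1), with a median of -0.02, and in fatty acid oxidation 0 of 18, with a median of -0.17, where limma also gave 0 genes at an unadjusted p below 0.05. Apob, the structural protein of VLDL, read 11.20 and 11.32 against 10.67 and 10.57, a difference of -0.64 that was not called. In gluconeogenesis 0 of 16 genes were called, with 2 at an unadjusted p below 0.05 and a median of 0.11. Pck1, which commits carbon to gluconeogenesis, differed by 0.47 and G6pc, glucose-6-phosphatase, by 0.29, with overlapping libraries for G6pc. Slc37a4, the glucose-6-phosphate transporter, differed by 0.14 and its libraries overlapped too. Pfkfb1, the bifunctional enzyme that sets fructose bisphosphate signalling between glycolysis and gluconeogenesis and is outside that list, read 5.18 and 4.91 against 7.84 and 7.93, a difference of 2.84 (SE 0.34, adjusted p = 0.0066 from limma).

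In the list of drug metabolism 2 of 16 measured genes were called, Por and Alas1, with a median of 0.01, and 0.175% of all tested genes were called. Por, which passes electrons to the cytochromes P450, read 6.33 and 5.65 in NADIR_180 and 8.56 and 8.48 in CONS_180, a difference of 2.53 (SE 0.37, adjusted p = 0.020 from limma). Alas1, the first enzyme of haem synthesis, read 8.54 and 8.63 against 10.46 and 10.22, a difference of 1.76. In the same list Cyp2e1, a cytochrome P450, stood at -0.89 and was not called. Outside the list, the glucuronosyltransferase Ugt2a3 differed by 4.55, from 2.79 and 2.70 to 7.28 and 7.30. Ugt genes share sequence, and the 2 other distinct tested regions given to Ugt2a3 differed by 0.04 and 0.00, so its value stands for the called region alone. Rhbdd2, a rhomboid family membrane protein, lay 45270 b from Por on chromosome 12 and differed by 3.39.

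Pik3r1, the regulatory subunit of phosphoinositide 3-kinase, read 6.84 and 6.61 in NADIR_180 and 9.03 and 8.55 in CONS_180, a difference of 2.07 (SE 0.33, adjusted p = 0.039 from limma). Its other tested region, of higher mean, differed by 1.57 and was not called (adjusted p = 0.16 from limma), so the call is lost when each gene is taken by its region of highest mean. Pik3r1 was the 1 called gene of 17 in insulin and growth, where 6 were higher and 1 lower at an unadjusted p below 0.05 and the median was 0.27. Igfbp1, a binding protein of insulin-like growth factors, differed by 0.96, Igf1 by 1.09 and Myc, a growth regulator, by 1.31, none of them called. Tp53inp1, of the p53 and autophagy response, differed by 1.98, Edem1, of protein disposal from the endoplasmic reticulum, by 2.48, and Zfp354a, a liver and kidney zinc finger gene, by 3.21, all 3 called. RGD1562310 differed by 2.93 and AABR07044148.1 by 4.35.

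LOC299282 and Serpina3c, neighbouring serine protease inhibitor genes 46893 b apart on chromosome 6, were called from high levels. LOC299282 read 10.48 and 9.91 in NADIR_180 and 12.66 and 12.61 in CONS_180, a difference of 2.44 (SE 0.25, adjusted p = 0.0034 from limma). Serpina3c read 11.01 and 10.37 against 12.78 and 12.77, a difference of 2.08. With quantile normalisation Serpina3c differed by 1.53 and was not called (adjusted p = 0.057 from limma), while LOC299282 differed by 1.83 and was. These genes belong to a family of near copies, so tags may be split or shared between them and they should be counted as 1 uncertain locus. Of 6 distinct LOC299282 regions 5 were called.

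Opposite to these genes, Cxcl1 read 9.12 and 9.17 in NADIR_180 and 7.31 and 6.93 in CONS_180. The difference was -2.03 (SE 0.34 over 2 libraries a group, limma adjusted p = 0.049), over chromosome 14 of rn6 (18743685 to 18745457). Both VEH libraries, at 8.13 and 8.25, lay between the groups. Of 22 measured genes of the acute phase and inflammation Cxcl1 and Serpina3c were the 2 called, with a median of -0.01, and the fibrinogen genes Fga, Fgb and Fgg differed by 0.17, 0.16 and -0.02. The next 9 lower genes by unadjusted p, none of them called, were Cxcl12 (a chemokine, -2.89), UST4r (-1.89), Pzp (a plasma protease inhibitor, -1.32), Car3 (carbonic anhydrase, -2.57), Serpina6 (the plasma carrier of CORT, -2.54), C9 and C1s (complement, -1.99 and -1.97), Tsc22d1 (-1.38) and Ccl9 (a chemokine, -1.50). Their adjusted p-values in limma ran from 0.093 for Cxcl12 to 0.28 for Ccl9. After centring on library medians, Cxcl1 and 6 of these 9 passed the threshold, with adjusted p-values from 0.0047 for UST4r to 0.047 for Tsc22d1, whereas Pzp (0.053), Car3 (0.063) and Ccl9 (0.062) did not.

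Serpina6 read 7.50 and 7.37 in NADIR_180, 5.48 and 4.30 in CONS_180 and 8.70 and 8.26 in VEH. For Cxcl12 the values were 7.72 and 7.50, then 5.25 and 4.20, with VEH at 9.00 and 8.55. For both genes the NADIR_180 libraries lay between the CONS_180 and VEH libraries.

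**Figure D2:**
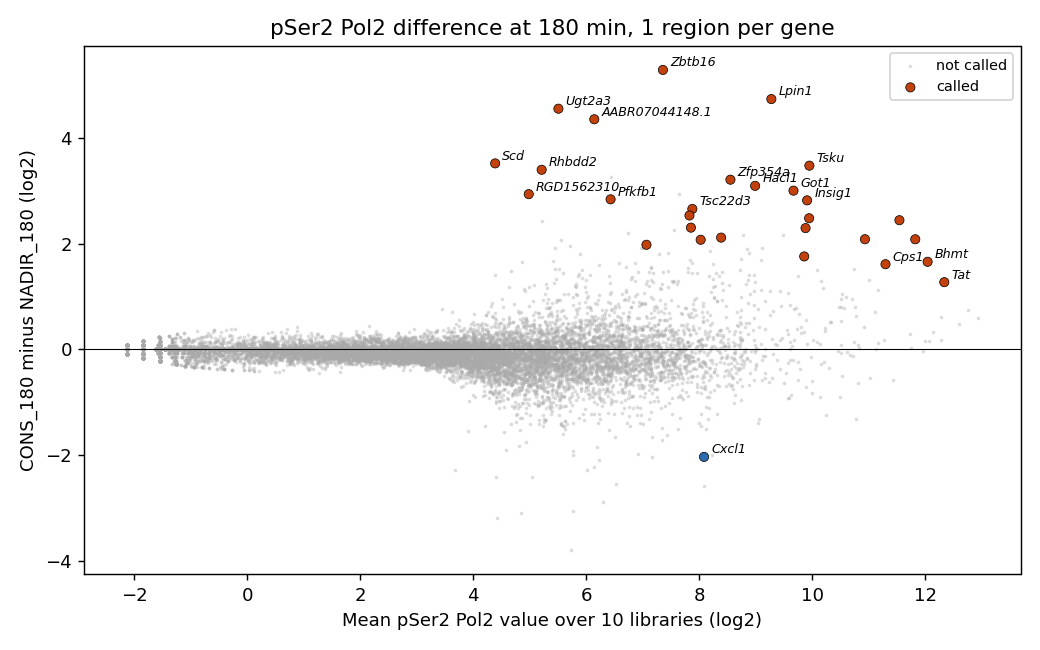
Difference of pSer2 Pol2 between CONS_180 and NADIR_180 (y axis, log2) against the mean value over the 10 libraries (x axis, log2), 1 point per tested gene, with called genes larger and coloured. The 28 raised genes span differences from 1.27 for Tat to 5.28 for Zbtb16, and Cxcl1 is the single called gene below 0, at -2.03.

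The lists not yet described held 0 called genes apart from the hepatocyte markers. The circadian clock list, with 0 of 19 genes called, had a median of -0.26, and the immediate early list, with 0 of 18, a median of -0.18. In limma these lists held 3 and 5 genes at an unadjusted p below 0.05. Nr1d1, a repressor in the clock, differed by -1.50 and Junb, a subunit of AP-1, by -1.44. The glycogen (0 of 10), bile acid (0 of 14), ATF4 stress response (0 of 11) and heat shock (0 of 8) lists had medians of -0.10, 0.02, -0.14 and -0.38, with 2, 4, 0 and 1 genes at an unadjusted p below 0.05. Ppp1r3c, which targets protein phosphatase 1 to glycogen, differed by 1.17 and Cyp7a1, the rate-limiting enzyme of bile acid synthesis, by 1.27. Of 9 measured housekeeping genes 0 were called, with a median of -0.28, where Actb stood at 0.17 and Polr2a, the largest subunit of the polymerase, at -0.28. Of the hepatocyte markers 1 of 10 was called (Cps1), 4 were higher and 0 lower at an unadjusted p below 0.05, 9 lay above 0 and the median was 0.52, with Alb at 0.59.

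**Figure D3:**
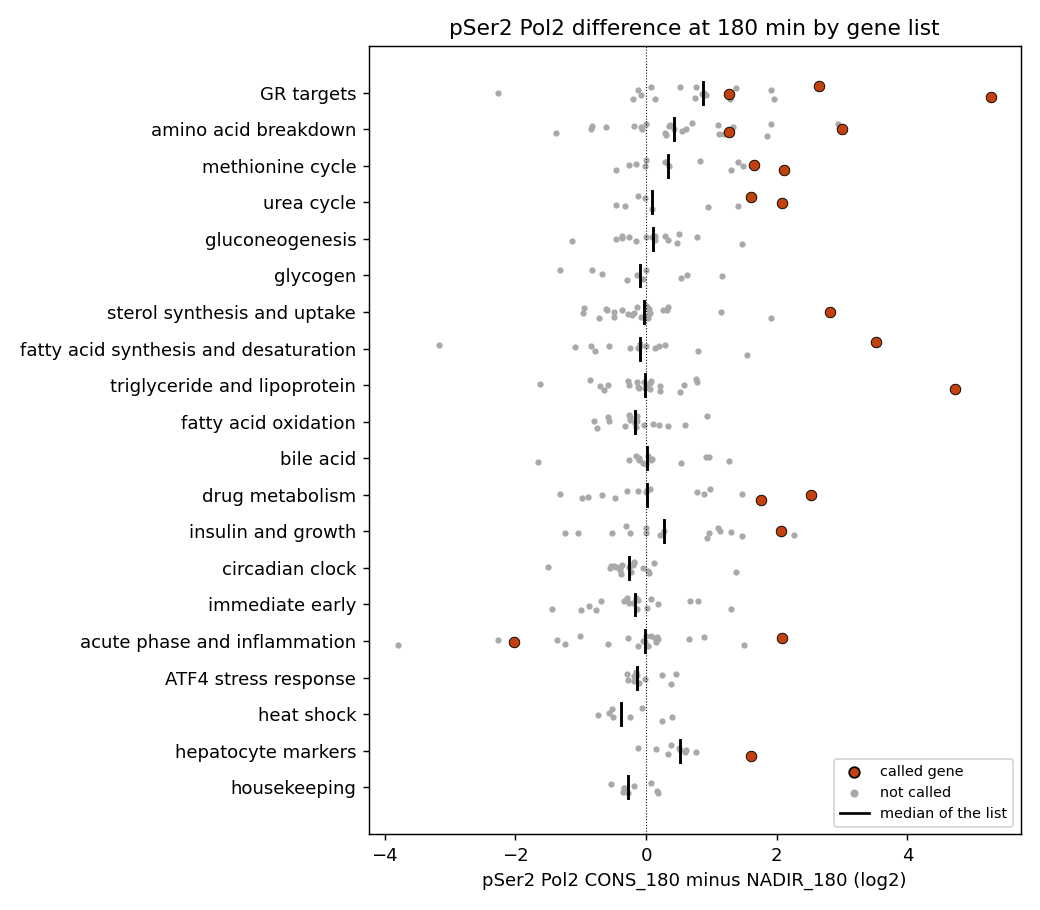
Difference of pSer2 Pol2 between CONS_180 and NADIR_180 (x axis, log2) for the measured genes of 20 lists, 1 point per gene, with called genes in orange and the list median (by the region of highest mean) as a black bar. Medians range from -0.38 for heat shock to 0.87 for GR targets, and the called genes lie in 10 of the lists of processes and in the hepatocyte markers.

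To place the levels at 180 min, the 28 raised genes were set beside VEH and the 140 min groups, as values without a test, since those contrasts would share the NADIR_180 and CONS_180 libraries. The genes were chosen for high CONS_180 and low NADIR_180 values, so the counts describe them and are no result about them. Both CONS_180 libraries lay above both VEH libraries for all 28 (9.62% of all tested genes), with a median difference of 2.20 between the group means. The NADIR_180 mean lay below the VEH mean for 21 of the 28, with a median difference of -0.47, and both NADIR_180 libraries lay below both VEH libraries for 16 (11.5% of all tested genes). The NADIR_180 mean lay farthest below VEH for Scd, with VEH at 6.10 and 5.82 and NADIR_180 at 2.88 and 2.84, followed by Insig1, with VEH at 10.22 and 10.01 and NADIR_180 at 7.61 and 7.49. For 27 of the 28 both PEAK_140 libraries lay above both NADIR_180 libraries (4.24% of all tested genes), and for 26 both CONS_140 libraries did so (9.33%). Scd was the exception at PEAK_140, with 2.90 and 2.86, and Scd and Serpina3c were the exceptions at CONS_140.

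The same contrast of patterns at 140 min, when hormone was present in both, used 4 libraries that the comparison at 180 min did not. The study reports higher circulating CORT at pulse peaks than during constant infusion, so hormone level differed here along with pattern. In limma 5 genes were called for CONS_140 against PEAK_140 (0.0302% of those tested), with 3336 regions at an unadjusted p below 0.05, and none of the 29 was among them. The 5 were Ces1f (3.18), Klf12 (2.88), Insig2 (2.49), Slco1b2 (2.31) and Cxcl10 (-3.63). The 28 raised genes were chosen for their difference at 180 min, so a lower median at 140 min is built into the choice. Over them, the median difference was 2.59 at 180 min and 0.34 at 140 min, with a range at 140 min from -2.07 for Hacl1 to 1.47 for RGD1562310. For Lpin1 it was 0.00 (SE 0.47), from 11.24 and 10.95 in PEAK_140 and 11.33 and 10.86 in CONS_140. For Cxcl1 it was -2.02 (SE 0.34), nearly the value at 180 min, with an adjusted p of 0.071 from limma. With the replicate block 339 genes were called at 140 min, 322 of them higher, and these included 4 of the 28 (RGD1562310 higher, and Hacl1, LOC299282 and Serpina3c lower) as well as Cxcl1. Without CONS_140 replicate 2, which leaves the library that stood apart, 3936 genes were called, and without either PEAK_140 library 0 were.

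The difference between the pattern effects at 180 min and 140 min was tested itself. It was called for 11 genes (0.0664%), of which 6 were among the 28, namely Hacl1 (5.16), Lpin1 (4.73), LOC299282 (4.13), Serpina3c (3.69), Got1 (3.10) and Insig1 (2.75). Lpin1, Got1 and Insig1 had differences near 0 at 140 min. Hacl1 read 10.39 and 10.01 in PEAK_140 but 8.27 and 7.99 in CONS_140, so that within the constant infusion it was lower at 140 min than at 180 min, where it read 10.90 and 10.57. Serpina3c had the same order, with 12.74 and 12.52 in PEAK_140, 10.90 and 11.14 in CONS_140 and 12.78 and 12.77 in CONS_180. In that test the replicate block gave 19 genes, 7 of them among the 28, with Ugt2a3 and AABR07044148.1 gained and Insig1 lost (adjusted p = 0.056 from limma). After centring on library medians the count was 123, of which 25 were among the 28. For Cxcl1 the difference between times was -0.00 (SE 0.48) and was not called. That SE leaves room for a difference either way, so equal effects were not shown.

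**Figure D4:**
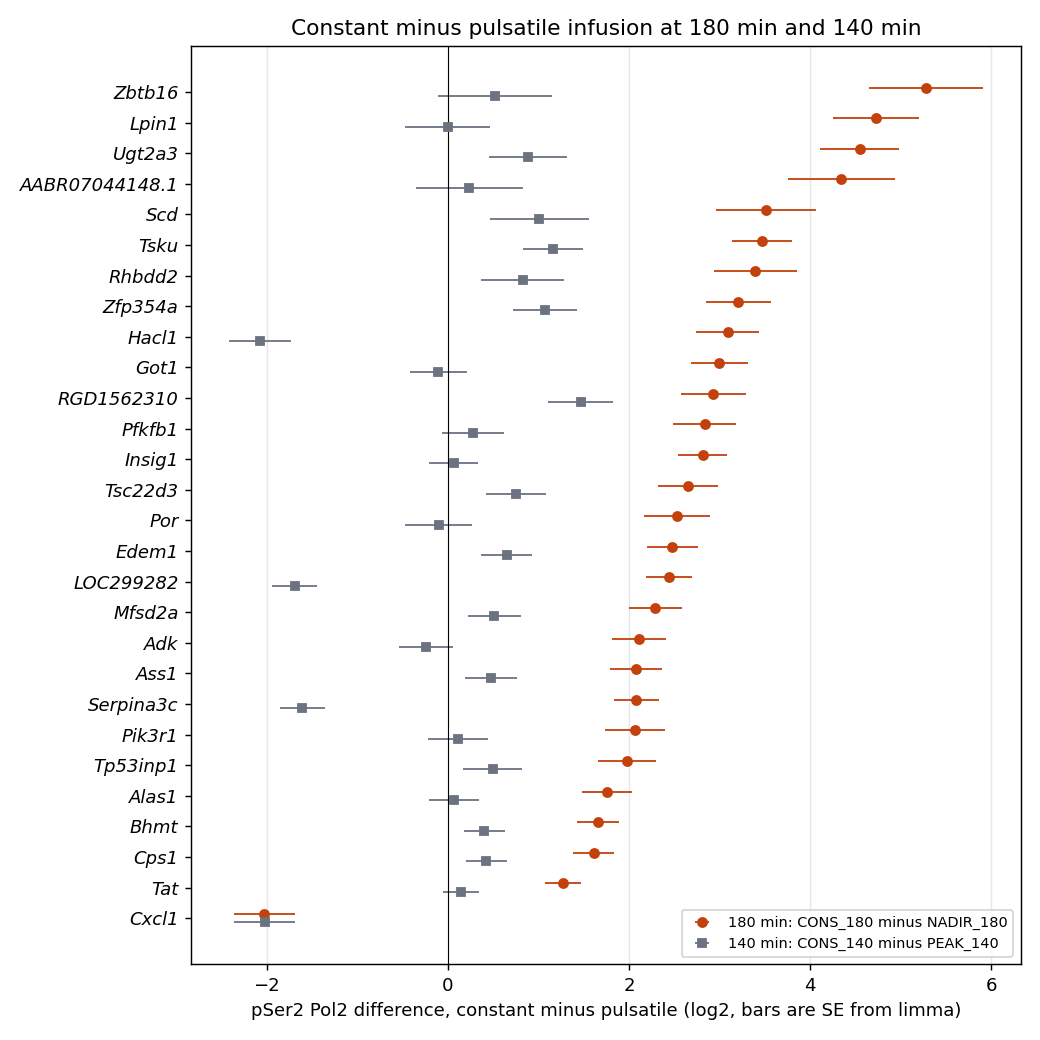
Differences of pSer2 Pol2 between constant and pulsatile infusion (x axis, log2, bars are SE from limma) for 28 of the 29 called genes, at 180 min in orange circles and at 140 min in grey squares, from separate libraries. Hacl1, LOC299282 and Serpina3c lie left of 0 at 140 min (-2.07, -1.69 and -1.61), and Cxcl1 lies at -2.0 at both times.

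To see whether mRNA differed as polymerase did, RNA libraries from liver were compared at 180 min between constant and pulsatile CORT, with 3 libraries per group. In edgeR 125 of 14092 genes were called (0.887%), 87 higher in constant CORT (0.617%) and 38 lower (0.27%). Of the 28 raised pSer2 Pol2 genes 27 were tested in RNA, and 6 were called, all higher, namely AABR07044148.1, Got1, Por, Lpin1, Tp53inp1 and Edem1. The RNA log2 difference was above 0 for 24 of the 27, with a median of 0.64 against -0.00 over all tested genes. Since the genes were chosen on pSer2 Pol2, and the assays differ in scale, the sizes of the differences in the 2 assays were not compared. Serpina3c was listed at 0 reads in all 12 libraries and was not tested.

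Got1 mRNA stood at 370, 286 and 295 CPM in pulsatile CORT and 791, 1061 and 976 CPM in constant CORT, without overlap. The difference was 1.57 on the log2 scale (SE 0.20, n = 3 per group, adjusted p = 0.0015 from edgeR's quasi-likelihood test). Por mRNA stood at 179, 228 and 167 CPM against 492, 412 and 377 CPM, a difference of 1.16 (adjusted p = 0.0018 from edgeR). Lpin1 mRNA stood at 820, 637 and 833 CPM against 984, 2152 and 1836 CPM, a difference of 1.11 (adjusted p = 0.030 from edgeR), with the lowest constant library close to the pulsatile ones. For AABR07044148.1 the difference of 2.95 rests on 0.74 to 0.77 CPM against 3.76 to 7.20 CPM. When the VEH libraries of each pattern were subtracted, as a difference of responses, none of the 6 passed the threshold, with adjusted p-values from 0.058 for Got1 to 0.22 for Tp53inp1 in edgeR, and 4 genes were called in all. The log2 differences of responses stood at 1.54 for Got1, 1.03 for Por, 1.21 for Lpin1, 0.84 for Edem1 and 0.76 for Tp53inp1, and 4.44 for AABR07044148.1.

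Scd ran the other way in RNA. Its mRNA stood at 137, 191 and 760 CPM in pulsatile CORT and 19.5, 21.3 and 91.3 CPM in constant CORT, a difference of -3.05 (SE 0.77, adjusted p = 0.074 from edgeR) that was not called. In both groups replicate 3 was the highest. LOC299282 and Bhmt also had RNA differences below 0, of -0.13 and -0.32, neither of them called. Zbtb16, with the greatest pSer2 Pol2 difference, differed by 0.67 in RNA and Insig1 by 0.39, also not called. Cxcl1 mRNA stood at 0.58 to 1.48 CPM in pulsatile CORT and 0 to 1.22 CPM in constant CORT, too few reads to show a difference, whereas it ranged from 4.34 to 35.9 CPM in the 6 VEH libraries.

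**Figure D5:**
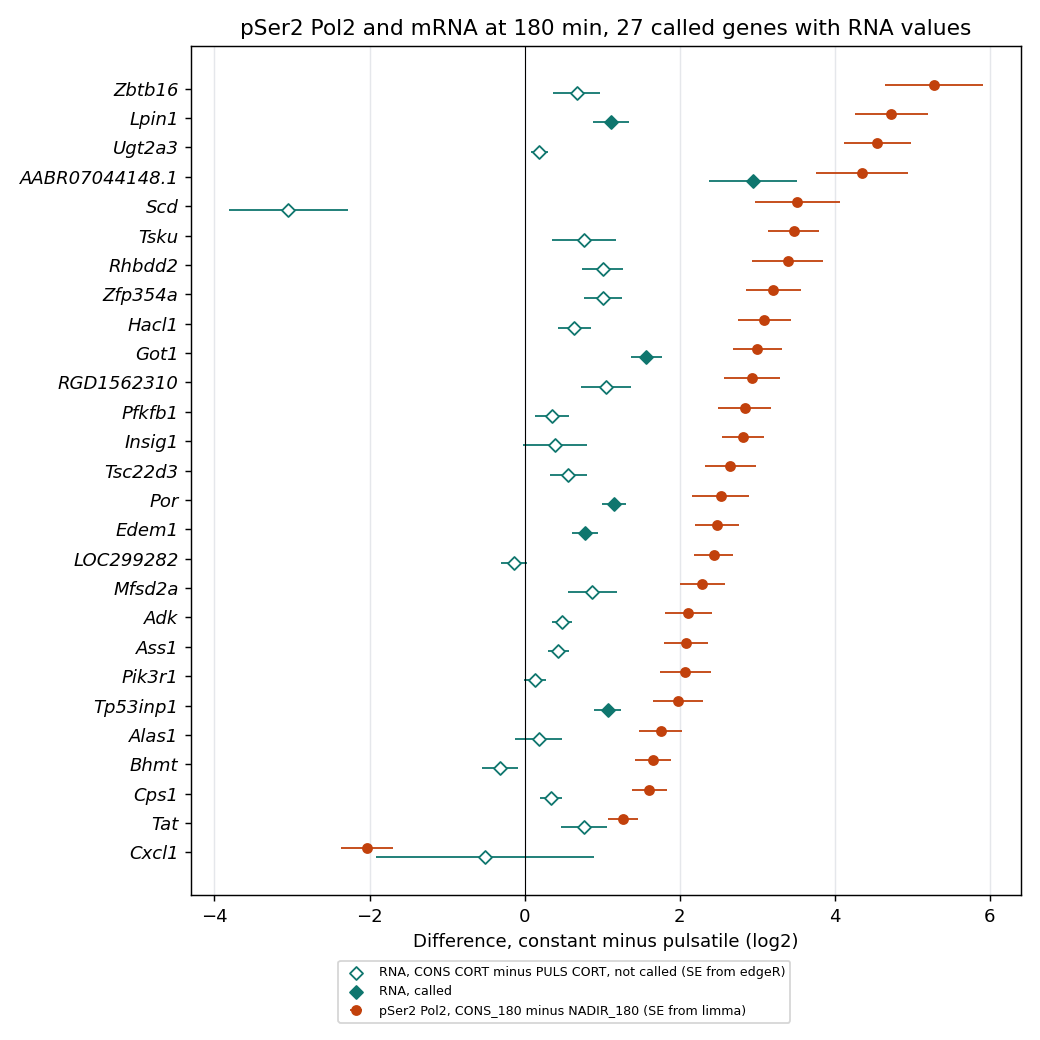
Difference between constant and pulsatile infusion at 180 min (x axis, log2) for 27 of the 28 called genes with RNA values, as pSer2 Pol2 (orange circles, SE from limma) and mRNA (green diamonds, filled where called, SE from edgeR). The genes were chosen on pSer2 Pol2, so sizes are not to be compared between assays, and Scd (-3.05), LOC299282 and Bhmt are the raised genes with an mRNA difference below 0.

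GR binding was measured in separate immunoprecipitations and compared between CONS_180 and NADIR_180 at 3981 regions. In limma 1976 were higher in CONS_180 (49.6%) and 0 were lower (0%), with 2350 regions at an unadjusted p below 0.05 in either direction. The median difference over all regions was 2.49, and after centring on library medians, which removes that shift, 0 regions were called in either direction (725 at an unadjusted p below 0.05). Of the 28 raised genes 27 had a GR region called higher within 50 kb of the start of their region, as had 12.8% of all tested genes. Zfp354a was the exception, with the nearest such region at 68276 b, and the median distance over the 28 was 5344 b.

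The nearest GR region to Got1, at -414 b from the start, read 4.56 and 3.91 in NADIR_180 and 7.16 and 7.35 in CONS_180, a difference of 3.02 (SE 0.36, adjusted p = 0.00094 from limma). At AABR07044148.1 the GR region overlapped the start and read 4.63 and 4.64 against 7.08 and 7.22. The GR region at -166 b from the start of Cps1 read 1.42 and -0.52 against 3.58 and 2.87, a difference of 2.77. For 20 of the 28 the nearest region was itself called higher, beside 49.6% of all 3981 GR regions. The difference at the nearest region was lowest at Edem1, at -1.52 (SE 1.53, not called), and stood at 5.30 (SE 0.68) at Adk. At Insig1 and Tat the nearest regions, at -60 b and 942 b, differed by 1.01 (SE 1.21) and 1.01 (SE 2.32) and were not called. Cxcl1 had a GR region at -504 b that was called higher in CONS_180, with a difference of 2.26 (SE 0.72, adjusted p = 0.031 from limma), while its pSer2 Pol2 was lower.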

How the data were processed

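The members, gene lists and motifs were chosen with earlier results of these data known. The authors trimmed ChIP reads (Trimmomatic 0.36), aligned them to rn6 with bowtie2, removed duplicates (SAMtools) and counted tags with HOMER (4.9.1 in the submitters' processing notes), which also name DESeq2, and STAR and featureCounts 1.6.2 for RNA. The deposited ChIP values, per region and library with input subtracted, were taken as log2 and used as given. The RNA file holds counts per gene deposited by the authors, of which 3956379 to 7777219 were present per library. Columns of the authors' own comparisons (fold changes and p-values), peak lists and the region list were not used.

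ChIP values were fitted with limma 3.58.1 in R 4.3.3 on all 10 libraries of an assay, 5 groups of 2, with 5 residual degrees of freedom and a variance trend. RNA counts of genes with more than 10 reads were fitted with edgeR 4.0.16 (TMM, quasi-likelihood, 12 libraries), and CPM use TMM-scaled library sizes. The p-values measure the spread between pooled ChIP libraries or single RNA libraries, which the labels do not trace to animals. Adjusted p-values are Benjamini-Hochberg over all features. A gene was counted once, by its called region of greatest difference, and otherwise shown by its region of highest mean. Regions can share coordinates: the 38315 regions have 21873 distinct positions, and the 65 called regions 39. The tests were checked on simulated data.

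Deviations of replicate 1 from the group mean correlated between pSer2 Pol2 groups with r from 0.15 to 0.55 across regions. The correlations were above 0.1 for all 6 group pairs, and on that ground the numbers were used as a block. Replicate 1 also had the higher library median in each CORT group over regions of mean 6 or more, such as 7.70 against 6.99 in CONS_140. The deviations were not centred by library, so these correlations cannot tell pairing from a difference in library scale. The 2 VEH libraries carry no number and were left out of the block fit. Named genes are up to 15 called genes per direction by size of the difference, filled to 10 by unadjusted p where fewer were called, every called member of a list, up to 4 uncalled members of each list with the highest mean, and 9 genes the study discusses as examples. Any other gene named, whether called or not, was chosen after its values were seen. Alternatives covered scaling, filters, the block, thresholds and each library left out. Some genes are not reported here by name, and counts and medians include them.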

Additional observations from a re-analysis of the deposited data

Results flagged for a closer look

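The effect of the infusion pattern on pSer2 Pol2 differed between 180 min and 140 min, by a test of that difference in limma, for 11 genes. Constant minus pulsatile was higher at 180 min than at 140 min for Hacl1 (5.16), Lpin1 (4.73), LOC299282 (4.13), Serpina3c (3.69), Got1 (3.10) and Insig1 (2.75), which are among the genes raised in CONS_180. At 140 min it stood at -2.07 for Hacl1, -1.69 for LOC299282 and -1.61 for Serpina3c. It was lower at 180 min than at 140 min for Klf12 (-4.56), Insig2 (-3.44), Ces1f (-3.31), Cyp2a1 (-3.17) and Hal (-3.14), which were not called at 180 min. In that order these genes stood at 2.88, 2.49, 3.18, 2.16 and 2.31 at 140 min. At 180 min they stood at -1.68, -0.95, -0.13, -1.01 and -0.83, so the sign was opposite. Insig2, the homologue of Insig1, read 6.69 and 6.75 in PEAK_140 and 9.32 and 9.10 in CONS_140, with NADIR_180 at 9.23 and 9.72 and CONS_180 at 8.57 and 8.49. Hal, which opens histidine breakdown, read 6.13 and 6.26 in PEAK_140 and 8.81 and 8.21 in CONS_140. For both genes the PEAK_140 libraries were the lowest of the 10. All 11 differences are on the log2 scale as deposited, and all 11 were also called with each library centred on its median. With the replicate block 9 of the 11 were called, and Cyp2a1 (adjusted p = 0.053 from limma) and Insig1 (0.056) were not.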

How the results depend on the processing

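The 29 genes kept their direction under every alternative run for them, but most of these could not have turned it. Changes to the block, variance trend, filter or groups fitted leave a region's difference as it is. Centring shifts all genes alike, and leaving out a library cannot turn groups that do not overlap. Quantile normalisation kept 25 of the 29 calls. The replicate block, set against the same 8 libraries without it, changed no call among the 29 other than the 5 named (3 lost and 2 regained). At 180 min the count of called genes was 72 with each library centred on its median, 80 with quantile normalisation, 325 when centred on regions of mean 6 or more and 147 when only those regions were tested (both chosen after seeing the data), 31 without a variance trend (25 of the 29 among them), 66 over regions above the median mean value, 4 without a filter, 15 at an adjusted p below 0.01, and 0 with the 4 libraries compared alone, with the replicate block (1 residual degree of freedom) or without it (2). Leaving out 1 library gave 0 to 82 genes, the lone library being assumed to vary like the other groups. At 140 min the replicate block, which for ChIP also leaves out VEH, gave 339, centring 116 and leaving out 1 library 0 to 3936. For the difference between times, the replicate block gave 19, centring 123 and leaving out 1 library 0 (without CONS_140 replicate 1 or either CONS_180 library) to 3512 (without CONS_140 replicate 2). In RNA, DESeq2 gave 209, no filter 273, the difference of responses over VEH 4 and leaving out 1 library 22 to 140, with 22, 33, 38 and 78 without pulsatile replicates 2 and 3 and constant replicates 1 and 3. The replicate block gave 161 in RNA, where numbers were not taken to pair the libraries (correlations of deviations 0.056 to 0.12, not all above 0.1). For GR, centring gave 0, leaving out 1 library 949 (without CONS_180 replicate 1) to 1983, with 1053 and 1238 without CONS_180 replicate 2 and NADIR_180 replicate 2, and the replicate block 2029, where numbers do not pair the libraries either (-0.027 to 0.024). The cause of these shifts was not tested. Differences for Ugt2a3, Scd, Rhbdd2, AABR07044148.1 and Zbtb16 start from a NADIR_180 value below 3 in at least 1 library, where few tags remain, so their sizes are fitted values and not bounds.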

Other observations

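The raised genes Hacl1, LOC299282 and Serpina3c were at or near the NADIR_180 level in the constant infusion at 140 min and at or above the PEAK_140 level at 180 min. LOC299282 read 10.68 and 10.80 in CONS_140, 12.66 and 12.61 in CONS_180, 12.61 and 12.26 in PEAK_140 and 10.48 and 9.91 in NADIR_180, with VEH at 11.75 and 11.72. These genes were chosen after their values were seen, and no test was run between the 2 constant groups.

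Igf1, which was not called at 180 min, was also lower in CONS_140 than in CONS_180, with 9.94 and 10.28 in PEAK_140, 8.99 and 8.23 in NADIR_180, 8.39 and 8.08 in CONS_140 and 9.83 and 9.59 in CONS_180. VEH stood at 10.63 and 10.42.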
